A study of Homo sapiens with 8 samples.

Results

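The forkhead box O (FOXO) transcription factor genes *FOXO1*, *FOXO3* and *FOXO4* and 7 genes known as their direct targets were followed in the serum response of A375 melanoma cells. These 10 genes, of 58051 counted, were listed by name from what is known of FOXO proteins, with earlier results of these data known. The targets were *FBXO32*, *KLHL24*, *CCNG2*, *PIK3IP1*, *SESN1*, *SESN3* and *TXNIP*. The serum group held 4 libraries, 1 from each of the wild-type A375 lines WT1 to WT4, cultured for 12 h in DMEM with 10% fetal bovine serum (FBS). The serum-free group held 4 libraries from the same lines, rinsed and kept for 12 h in DMEM with 0% FBS. A375 is an established human melanoma cell line, and each of the 4 lines was grown out from a single A375 cell, so a line is 1 clone and a library is 1 culture of it.

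FOXO proteins sit at the end of the growth factor pathway that runs from insulin and other receptors through PI3K to the kinase AKT. When growth factors are present, AKT phosphorylates FOXO proteins, 14-3-3 proteins bind them, and they are held out of the nucleus. When the signal stops, they enter the nucleus and turn on genes of growth arrest, protein breakdown, autophagy and metabolic stress. RNA counts measure neither the phosphorylation nor the location of FOXO proteins.

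The number of reads assigned to genes was 29759279 to 67101005 in the serum libraries and 37847737 to 73341551 in the serum-free ones. Multi-mapped reads, which went uncounted, made up 22.7% of the WT1 serum library and 16.8% of the WT2 serum library, against 5.73% to 10.1% in the other 6 libraries, so the main counts of genes are also given without those serum libraries. Of the melanoma genes examined, *SOX10* had 0 reads in all 8 libraries and the pigment gene *TYR* reached at most 0.052 CPM (counts scaled to the size of the library). Reads that fit overlapping genes also went uncounted (8.23% to 11.5% of a library). Overlap was not examined for *SOX10*, so its 0 need not mean absent RNA. *MITF*, a melanocyte lineage factor, was at 30.1 to 44.2 CPM, *S100B* at 13.6 to 34.9 CPM and *AXL* at 309 to 656 CPM. Of 9 melanoma markers tested, *S100A1* rose without serum (log2 fold change 0.84, edgeR's adjusted p = 0.00605) and *MITF* fell (-0.28, adjusted p = 0.0496, or 0.192 with a GC correction alone). Among all genes in that test, 11.1% rose and 14.0% fell. The leukocyte gene *PTPRC* was at 0.051 CPM or less, and the 6 immune markers summed to 3.01 to 6.90 CPM with serum and 3.93 to 8.44 CPM without. The 6 fibroblast markers summed to 6.41 to 10.3 CPM with serum and 7.96 to 10.4 CPM without. Of the 4 that could be tested, 1 rose, *PDGFRA* (log2 fold change 1.77, edgeR's adjusted p = 0.00767). The calls of *S100A1*, *MITF* and *PDGFRA* were lost without the serum libraries of WT1 and WT2. In such bulk libraries, fewer cells of a kind and less RNA per cell cannot be told apart.

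Promoters of the listed genes were searched for 3 short motifs, of which 2 are known to be bound by FOXO proteins and the other, the E-box, by helix-loop-helix factors such as MondoA and MLX. The stretches that hold one are shown. The RefSeq table (GRCh38.p14) held 16 promoters, each from 250 bases before to 50 bases after a start site, for 9 of the 10 genes, and none was matched for *FBXO32*. Each was searched on both strands for GTAAACA, the FOXO consensus (read as TGTTTAC on the other strand), for CAAAACA, the core of the insulin response element (TGTTTTG), and for CACGTG, the E-box, which reads the same on both strands. The motif is in capitals in each sequence, which is written 5′ to 3′ on the strand of the gene.
TXNIP, chr1:145996687-145996713, minus strand: cgggctcctgGTAAACAaggaccgggc
FOXO4, chrX:71095864-71095890, plus strand: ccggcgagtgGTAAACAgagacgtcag
PIK3IP1, chr22:31292456-31292482, minus strand: aaagagaggcTGTTTACcagaacagca
KLHL24, chr3:183635581-183635607, plus strand: tgacgctcagTGTTTTGgcccggacgg
CCNG2, chr4:77157167-77157192, plus strand: cgcggggagtCACGTGccccgccccc
With the start site counted as 0, the motif began at -124 in *TXNIP*, -32 in *KLHL24*, -30 in *CCNG2*, 16 in *PIK3IP1* and 23 in *FOXO4*. No motif overlapped another. GTAAACA stood in 3 of the 16 promoters and in 3.42% of all 35116 promoters in the table. CAAAACA stood in 1 of 16, against 4.92% of all, and CACGTG in 1 of 16, against 7.26% of all. With 16 promoters, a share has a wide interval (95% exact binomial interval for GTAAACA 4.05% to 45.6%), and several promoters belong to the same gene. The 250 bases before the start site of *TXNIP* (chr1:145996580-145996829, minus strand) and of *KLHL24* (chr3:183635373-183635622, plus strand) show where the motif lies.
TXNIP: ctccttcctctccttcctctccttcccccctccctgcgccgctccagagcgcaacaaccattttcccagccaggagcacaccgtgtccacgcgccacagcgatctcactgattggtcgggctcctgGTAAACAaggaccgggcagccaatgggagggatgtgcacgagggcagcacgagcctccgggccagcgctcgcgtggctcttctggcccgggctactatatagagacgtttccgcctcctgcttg
KLHL24: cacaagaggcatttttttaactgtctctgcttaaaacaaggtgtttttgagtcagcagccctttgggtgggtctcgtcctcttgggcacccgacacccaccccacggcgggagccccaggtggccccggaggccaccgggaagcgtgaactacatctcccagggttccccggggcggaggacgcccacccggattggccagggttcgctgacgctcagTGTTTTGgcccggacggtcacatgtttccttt
No match in these windows was found for *FOXO1*, *FOXO3*, *SESN1* or *SESN3*, which says only that these letters are not there.

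The first comparison, without serum against with serum, asked which of the 10 genes changed when serum was withdrawn. With edgeR's quasi-likelihood test and Benjamini-Hochberg adjustment over the 17671 genes tested, 6 of the 9 listed genes that could be tested rose and 0 fell. Of all genes tested, 11.1% rose and 14.0% fell. The 6 were *FOXO3* and *FOXO4* among the 3 factors, and *FBXO32*, *KLHL24*, *CCNG2* and *SESN3* among the targets. *FOXO1*, *TXNIP* and *SESN1* did not pass, and *PIK3IP1* had too few reads to be tested. The median log2 fold change was 0.64 for the factors and 1.38 for the 6 targets tested, while the median of all genes was 0.033. Because the libraries pair by line, the same test with a block for line raised the count to 8 of 9, adding *FOXO1* and *TXNIP*. With that block 23.2% of all genes rose, and 45.7% changed in either direction. When the serum libraries of WT1 and WT2, with their high share of uncounted reads, were left out, 5 of the 9 rose and *SESN3* was the call lost, while of 18668 genes tested 374 rose and 724 fell.

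**Figure D1:**
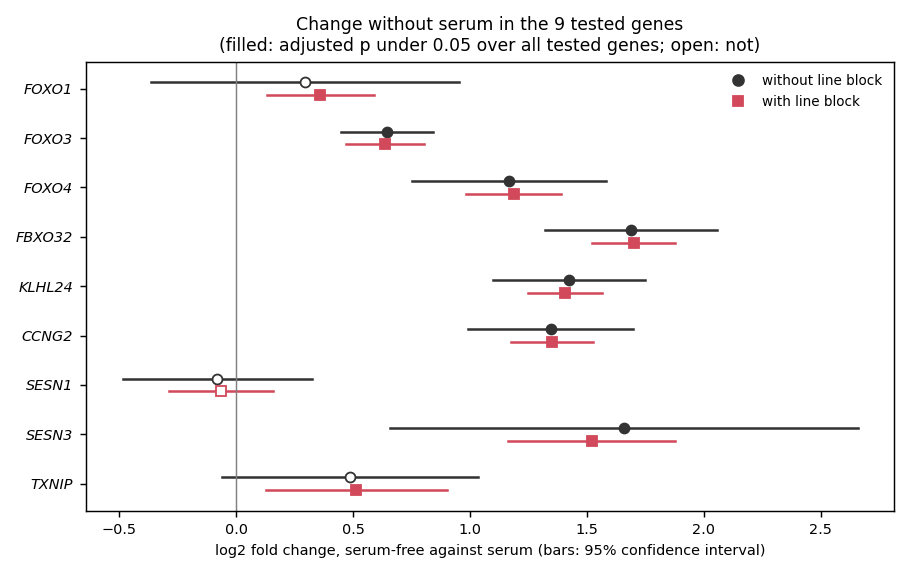
Log2 fold change of each of the 9 tested genes, serum-free against serum, with its 95% confidence interval; circles are from the test without the line block and squares from the test with it, filled where the adjusted p over all tested genes was under 0.05. FBXO32, SESN3, KLHL24 and CCNG2 lie above 1 in both tests, while FOXO1 and TXNIP are filled only with the block and SESN1 lies near 0.

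*FOXO3* (ENSG00000118689, chromosome 6 of GRCh38, 108559825 to 108684774), a family member known for its part in stress resistance, was at 28.5, 29.2, 30.8 and 26.5 CPM in WT1 to WT4 with serum. Without serum it was at 46.4, 39.4, 43.7 and 50.2 CPM in the same order. Every serum-free library lay above every serum library, and WT4 moved from the lowest value to the highest. The log2 fold change was 0.64 ± 0.09 (SE, n = 4 per condition; 95% confidence interval 0.45 to 0.84; edgeR's adjusted p = 0.00184).

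*FOXO4* (ENSG00000184481, chromosome X, 71095851 to 71103532), a smaller FOXO protein under the same AKT control, was at 7.21, 7.53, 11.3 and 11.9 CPM in WT1 to WT4 with serum. Without serum it was at 18.8, 19.2, 21.2 and 25.8 CPM. The groups did not overlap, and WT1 and WT2 were the lower lines in both conditions. Its log2 fold change of 1.17 ± 0.19 (SE, 95% interval 0.75 to 1.58) was the largest of the 3 factors (edgeR's adjusted p = 0.00285).

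*FOXO1* (ENSG00000150907, chromosome 13, 40555667 to 40666641), the main FOXO protein of insulin-responsive tissues, was at 11.1, 9.24, 15.9 and 23.7 CPM in WT1 to WT4 with serum and at 15.8, 15.1, 19.1 and 23.2 CPM without. The groups overlapped widely, since WT4 with serum was the highest of all 8 libraries and WT4 was the line that did not go up. Without regard to line the log2 fold change was 0.29 ± 0.29 (SE, 95% interval -0.36 to 0.95, edgeR's adjusted p = 0.497), and with the line block it was 0.36 (edgeR's adjusted p = 0.0132). Leaving out the WT2 serum library gave 0.11, and leaving out the WT4 serum library 0.60 (edgeR's adjusted p = 0.0703), the ends of the range over 12 such tests. Without the serum libraries of WT1 and WT2 it was -0.12 (edgeR's adjusted p = 0.784), which leaves the serum group to the lines with most *FOXO1*.

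Per length, the 3 factors stood near the middle of all expressed genes. Levels were put on the RPKM scale (counts scaled to exon length and to library size) to compare genes. With serum, *FOXO3* was at 3.75 RPKM, *FOXO1* at 2.52 and *FOXO4* at 2.503, beside a median of 2.75 over 17425 genes. Without serum *FOXO3* was at 5.86 RPKM and *FOXO4* at 5.61, above *FOXO1* at 3.07 and the median of 2.93. *FOXO1* and *FOXO4* with serum, and *FOXO3* and *FOXO4* without, differed by less than their spread over lines. The summed level of the 3 genes was 8.77 ± 1.60 RPKM with serum and 14.5 ± 1.95 RPKM without (SD, n = 4). Within that sum, *FOXO4* made up 28.2% ± 2.48 with serum and 38.5% ± 1.59 without (SD, n = 4), with no overlap between the conditions. The share of *FOXO1* was 27.8% ± 7.09 with serum, from 21.1% in WT2 to 37.7% in WT4, and 20.99% ± 1.57 without serum. *FOXO3* held 43.9% ± 8.72 and 40.5% ± 2.75 of the sum.

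**Figure D2:**
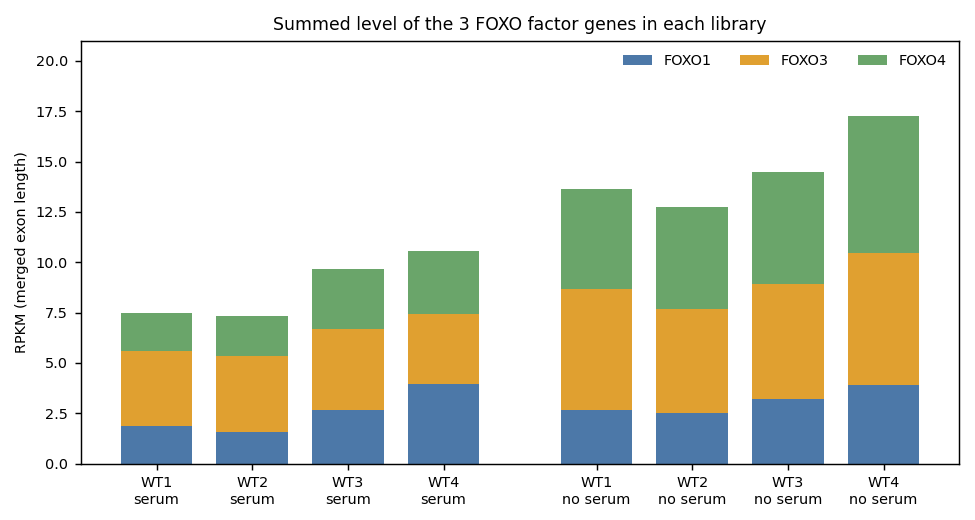
Stacked level of FOXO1, FOXO3 and FOXO4 in RPKM (y axis, from 0) in each of the 8 libraries, serum at left and serum-free at right. The sum runs from 7.35 to 10.6 RPKM with serum and from 12.7 to 17.3 RPKM without, and the FOXO4 segment is taller in each serum-free library than in any serum library.

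A further family member, *FOXO6*, was rare. Its counts were 25, 35, 33 and 30 in WT1 to WT4 with serum and 104, 149, 40 and 84 without. It was higher without serum in all 4 lines, with log2 CPM differences of 1.83, 1.80, 0.40 and 0.48 in WT1 to WT4, so WT3 and WT4 moved least. The log2 fold change was 1.22 ± 0.32 (SE, edgeR's adjusted p = 0.0216), at 0.30 RPKM with serum and 0.69 without. The call was lost without the serum libraries of WT1 and WT2 and with a GC correction alone. *FOXO3B*, a near-identical copy of part of *FOXO3*, was at 1.34 and 1.41 RPKM and its log2 fold change was 0.07 (edgeR's adjusted p = 0.794). Reads that fit both copies can be split or lost in counting, so the values of *FOXO3* and *FOXO3B* are uncertain to that extent.

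Among the targets, *FBXO32* (ENSG00000156804, chromosome 8, 123497889 to 123541206) encodes atrogin-1, the substrate-binding part of a ubiquitin ligase known for protein breakdown in wasting muscle. It was at 16.3, 13.9, 11.1 and 9.93 CPM in WT1 to WT4 with serum and at 46.9, 45.0, 33.9 and 39.7 CPM without. The lowest serum-free library was above the highest serum library by a wide margin, and WT4 had the lowest serum value. The rise was 1.69 ± 0.16 on the log2 scale (SE, edgeR's adjusted p = 8.28e-04).

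*KLHL24* (ENSG00000114796, chromosome 3, 183635623 to 183684519) encodes a Kelch-like adaptor of a cullin ubiquitin ligase. In WT1 to WT4 it was at 14.5, 13.4, 16.3 and 17.1 CPM with serum and at 35.4, 33.3, 44.4 and 51.3 CPM without. The lines kept the same order in both conditions, with WT2 lowest and WT4 highest, and the conditions did not overlap. The log2 fold change was 1.42 ± 0.15 (SE, edgeR's adjusted p = 8.88e-04).

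*CCNG2* (ENSG00000138764, chromosome 4, 77157207 to 77170060) encodes cyclin G2, an unusual cyclin found in cells that leave the cell cycle. Its values were 9.06, 10.4, 13.3 and 14.3 CPM with serum and 27.5, 25.5, 31.4 and 34.9 CPM without, in WT1 to WT4. WT3 and WT4 were the higher lines in both conditions, and no serum library reached the lowest serum-free one. The log2 fold change was 1.35 ± 0.16 (SE, edgeR's adjusted p = 0.00112).

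The sestrins restrain mTORC1 when amino acids or growth signals are short, and their 3 genes are given one by one. *SESN3* (ENSG00000149212, chromosome 11, 95165513 to 95232475), the FOXO-controlled sestrin, was at 7.84, 6.65, 12.8 and 10.8 CPM in WT1 to WT4 with serum. Without serum it was at 20.01, 12.8, 40.7 and 46.4 CPM. The groups only just did not overlap, as the highest serum value was 12.81 CPM in WT3 and the lowest serum-free value 12.83 CPM in WT2. The log2 fold change was 1.66 ± 0.43 (SE, 95% interval 0.66 to 2.66, edgeR's adjusted p = 0.0275), and with the line block it was 1.52 (edgeR's adjusted p = 4.67e-05). The call without the block was lost in 7 of the 12 tests with a library or a line left out (log2 fold change 1.37 to 1.91 over the 12). These left out serum WT1 (edgeR's adjusted p = 0.0863), serum WT2 (0.0739), serum-free WT3 (0.0625), serum-free WT4 (0.0585), or both libraries of WT1 (0.107), WT3 (0.0922) or WT4 (0.102).

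*SESN1* (ENSG00000080546, chromosome 6, 108984309 to 109094846), which also answers to p53, was at 12.4, 13.7, 17.3 and 9.83 CPM in WT1 to WT4 with serum and at 11.6, 15.5, 12.8 and 10.3 CPM without. The groups overlapped throughout, with 2 lines up and 2 down. The log2 fold change was -0.082 ± 0.18 (SE, 95% interval -0.49 to 0.32, edgeR's adjusted p = 0.778), and its sign turned with a correction for GC content (0.049). *SESN2*, a sestrin not among the listed targets, was at 22.4, 38.5, 27.2 and 23.7 CPM with serum and at 13.1, 19.3, 19.3 and 15.3 CPM without. Every serum-free value lay below every serum value, and the fall was -0.74 ± 0.19 on the log2 scale (SE, edgeR's adjusted p = 0.0208). That call, like that of *SESN3*, was lost without the serum libraries of WT1 and WT2.

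*TXNIP* (ENSG00000265972, chromosome 1, 145992435 to 145996579) encodes an arrestin-like protein that binds thioredoxin and limits glucose uptake. It was at 34.8, 26.6, 38.9 and 17.8 CPM in WT1 to WT4 with serum and at 37.9, 33.9, 52.6 and 41.1 CPM without. Each line was higher without serum, WT4 by far the most, yet the conditions overlapped because the lines differed with serum. Without the block the log2 fold change was 0.48 ± 0.24 (SE, 95% interval -0.06 to 1.03, edgeR's adjusted p = 0.175), and with the line block it was 0.51 (edgeR's adjusted p = 0.0390). Leaving out the WT4 serum library lowered the value without the block to 0.31 (edgeR's adjusted p = 0.231), and leaving out line WT4 did the same. *TXNIP* was the most abundant of the 10 genes per length, at 8.21 RPKM with serum and 11.5 without. Another known activator of *TXNIP* is the glucose sensor pair MondoA (*MLXIP*) and *MLX*. *MLXIPL*, also among the Mondo genes, had 0 to 15 reads per library and was not tested. *MLX* fell by 0.40 on the log2 scale (edgeR's adjusted p = 0.00282), and *MLXIP* was at 0.04 (adjusted p = 0.665), turning to -0.13 with the line block and a GC correction (adjusted p = 0.0139). *TXN*, the thioredoxin gene, was at -0.12 (edgeR's adjusted p = 0.320), turning to 0.08 with the line block and a GC correction (0.191).

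*PIK3IP1* (ENSG00000100100, chromosome 22, 31281593 to 31292534) encodes a membrane protein that inhibits PI3K. Only 7, 6, 4 and 3 reads were counted in WT1 to WT4 with serum and 8, 12, 9 and 19 without. WT1 barely moved and WT4 had the most reads without serum. At this depth the gene entered the test only when no filter on low counts was applied, with a log2 fold change of 0.94 ± 0.59 (SE) and an adjusted p of 0.380 from edgeR over 34455 genes.

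**Figure D3:**
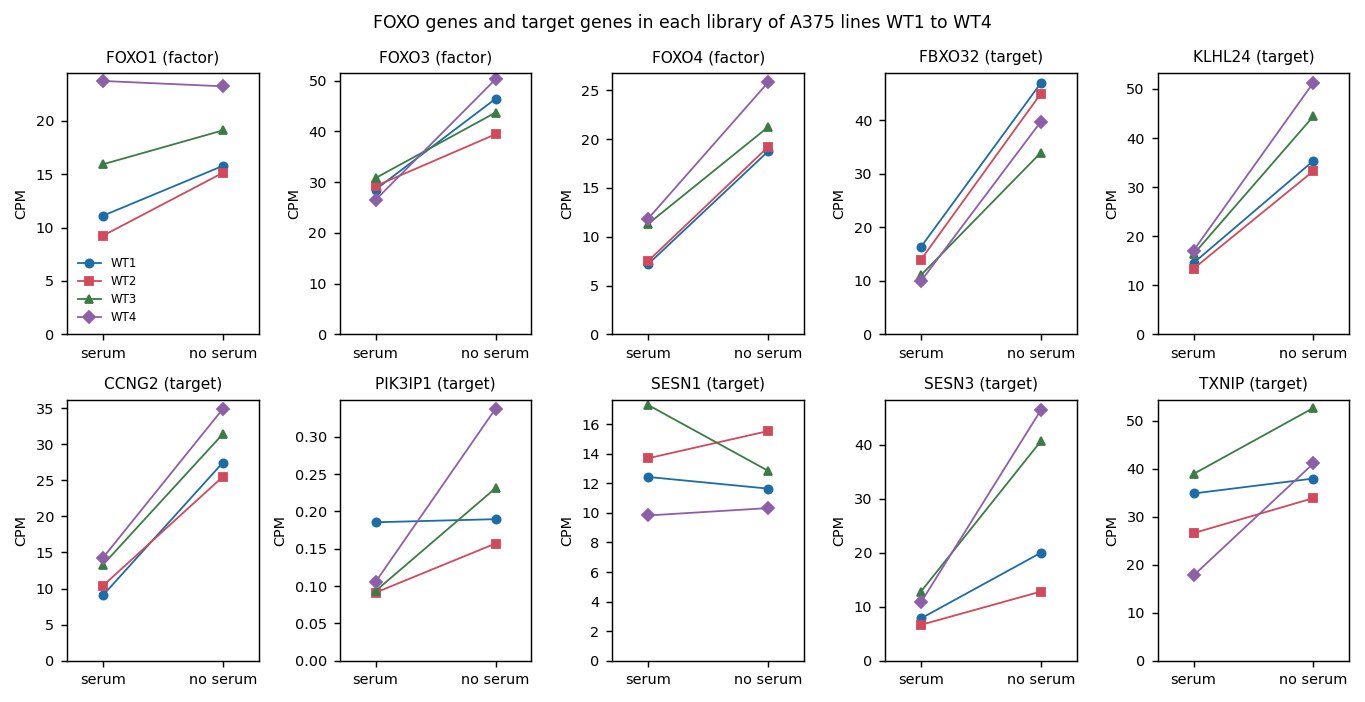
CPM of each of the 10 genes in every library (y axis, each panel from 0 on its own scale), with serum at left and without serum at right and a line joining the 2 libraries of each A375 line. All 4 lines climb in FBXO32, KLHL24, CCNG2, SESN3 and FOXO4, with WT2 shallow in SESN3. FOXO1 is flat in WT4, SESN1 crosses, and PIK3IP1 stays under 0.4 CPM.

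Per length, the targets other than *TXNIP* were under the median of expressed genes with serum. They were at 1.83 RPKM for *SESN1*, 1.77 for *KLHL24*, 1.73 for *FBXO32*, 1.59 for *CCNG2*, 0.90 for *SESN3* and 0.031 for *PIK3IP1*. The first 4 are neighbours that did not differ beyond their spread, and their order depends on the exon length used. Without serum, *FBXO32* (5.60 RPKM), *KLHL24* (4.75) and *CCNG2* (4.02) were above the median of 2.93, *SESN3* (2.83) was close to it, and *SESN1* (1.73) and *PIK3IP1* (0.060) stayed below it.

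The second question was how the response and the level varied between the 4 lines. Of the 9 tested genes, 7 were higher without serum in all 4 lines, against 28.8% of all genes tested, as was the untested *PIK3IP1*, and the exceptions were *FOXO1* (3 of 4 lines) and *SESN1* (2 of 4). Each serum-free value lay above each serum value in 6 of the 9, against 12.6% of all genes, and below each in 0, against 15.0%. *KLHL24* had the most even response, with log2 differences of 1.28, 1.31, 1.44 and 1.58 in WT1 to WT4. *PIK3IP1*, with its few reads, had the widest (0.03, 0.58, 1.02 and 1.37), followed by *SESN3* (1.35, 0.94, 1.66 and 2.10) and *TXNIP* (0.12, 0.35, 0.44 and 1.21). WT4 had the largest response in 6 of the 10 genes (*FOXO3*, *FBXO32*, *KLHL24*, *PIK3IP1*, *SESN3* and *TXNIP*) and the smallest of the 4 lines in *FOXO1* (-0.03). With 1 library per line and condition, a difference in response between lines was not testable. The deposited counts of WT4 are named differently from their labels, which alone identify that line. Without the WT4 libraries 5 of the 9 tested genes still rose, all but *SESN3* of the 6. In that fit 2534 of 17756 genes rose and 3097 fell.

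**Figure D4:**
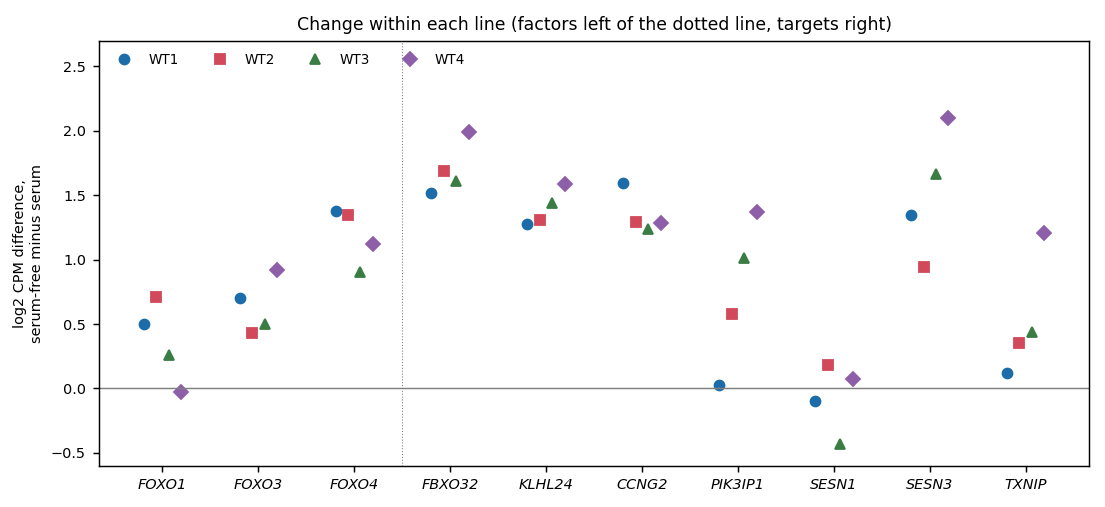
Difference in log2 CPM, serum-free minus serum, within each A375 line (marker shape) for the 10 genes, factors left of the dotted line and targets right. Points of KLHL24, CCNG2 and FBXO32 lie close together above 1, those of SESN3, TXNIP and PIK3IP1 are spread widely with WT4 on top, and SESN1 lies on both sides of 0.

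A test of the line terms, with condition in the model, asked whether levels differed between lines. It called 7 of the 9 tested genes, against 22.9% of all genes, with 3 residual degrees of freedom. *FOXO1* differed most by its p (edgeR's adjusted p = 7.54e-04), with its highest line at 1.93 times its lowest. *SESN3* differed by 2.94 times (edgeR's adjusted p = 0.00380). *FOXO4*, *FBXO32*, *KLHL24*, *CCNG2* and *SESN1* also passed (edgeR's adjusted p from 0.00718 to 0.0294), with 1.37 to 1.496 times between the highest and lowest line. *FOXO3* (1.12 times; adjusted p = 0.790) and *TXNIP* (1.56 times; adjusted p = 0.184) did not pass. Leaving out a line ended the calls of *FBXO32* (without WT1, edgeR's adjusted p = 0.0697; without WT3, 0.0706), *KLHL24* (without WT2, 0.0634) and *SESN1* (without WT4, 0.139), and brought in *TXNIP* without WT1 (0.0364) or WT4 (1.3e-05).

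Relatives of the targets by sequence were compared because near copies share a fold but not always FOXO control. Of 7 tested paralogs, 1 rose and 2 fell, beside 11.1% and 14.0% of all genes. Without the serum libraries of WT1 and WT2 none of the 3 calls was kept (0 rose and 0 fell). *ARRDC2*, an arrestin-domain relative of *TXNIP*, rose by 0.42 on the log2 scale (edgeR's adjusted p = 0.00731), while *ARRDC3* fell by 0.52 (0.0383, or 0.163 with a GC correction alone) beside *SESN2*. *ARRDC1* was at 0.37 (adjusted p = 0.0674 from edgeR, or 0.00112 with the line block), falling to 0.13 with the block and a GC correction (adjusted p = 0.101), and *ARRDC4* at 0.07 (0.832), and *ARRDC5* had too few reads. *FBXO25*, the closest relative of *FBXO32*, was at 0.11 (edgeR's adjusted p = 0.337), or at 0.23 with the line block and a GC correction (0.00744), and *CCNG1*, a p53-induced relative of *CCNG2*, at -0.09 (0.614), turning to 0.10 with the line block and a GC correction.

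Other FOXO targets, 36 genes of which 26 could be tested, moved in both directions. In this wider list 7 rose and 5 fell, beside 11.1% and 14.0% of all genes, with a median log2 fold change of 0.08. With the line block 11 rose and 8 fell, beside 23.2% and 22.4% of all genes, and without the serum libraries of WT1 and WT2 2 rose and 2 fell. Of the 7 that rose, 3 were autophagy genes. *ULK1*, the kinase that starts autophagy, rose by 1.01 (edgeR's adjusted p = 0.00317), *PINK1*, a kinase that marks damaged mitochondria, by 0.995 (0.0170) and *GABARAPL1*, a coat protein of the autophagosome, by 0.69 (0.00754). *ATG12*, named after its value was seen, fell by 0.52 (0.0414, or 0.0859 with a GC correction alone), so 3 of 6 autophagy genes rose and 1 fell. Without the serum libraries of WT1 and WT2, 2 rose and 0 fell, as the calls of *PINK1* and *ATG12* were lost. Of 8 cell cycle genes, *RBL2*, the pocket protein p130 of resting cells, rose by 0.40 (edgeR's adjusted p = 0.00301), *CITED2* rose by 0.46 (0.0191), and *GADD45A*, a growth arrest gene, fell by 0.38 (0.0231). These cell cycle calls were lost without the serum libraries of WT1 and WT2. The classical target *CDKN1B*, which encodes the inhibitor p27 and is named here outside the rule, was at 0.06 (edgeR's adjusted p = 0.776), or at 0.14 with the line block and a GC correction (0.0480). *CDKN1A*, of the same list and also outside the rule, went the other way, at -0.17 (edgeR's adjusted p = 0.658). It passed with the line block (-0.17, 0.0380) and with the block and a GC correction (-0.35, 2.36e-05). *PDK4*, a brake on glucose oxidation also named outside the rule, was at 0.78 (edgeR's adjusted p = 0.456) and rose by 0.89 with the line block (3.33e-06).

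The remaining lists were small, and the shares of all genes beside them are 11.1% higher and 14.0% lower. Of 4 cell death genes 0 rose, while *PMAIP1*, a BH3-only death gene, fell by 0.72 (edgeR's adjusted p = 0.00520) and *BNIP3* by 0.36 (0.0113). *PRDX3*, a mitochondrial peroxidase, fell by 0.47 (edgeR's adjusted p = 0.00364) as 1 of 2 tested genes against oxidative damage. Among 6 metabolic and receptor genes 2 rose, the insulin receptor gene *INSR* by 0.44 (edgeR's adjusted p = 0.00478) and *ERBB3*, a receptor for neuregulins, by 0.58 (0.0441, or 0.0600 with a GC correction alone). The calls of *PMAIP1*, *BNIP3*, *INSR* and *ERBB3* were lost without the serum libraries of WT1 and WT2. Genes with 0 or nearly 0 CPM in both conditions included the liver targets *G6PC1* and *PCK1* and the muscle target *TRIM63*, named here outside the rule.

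**Figure D5:**
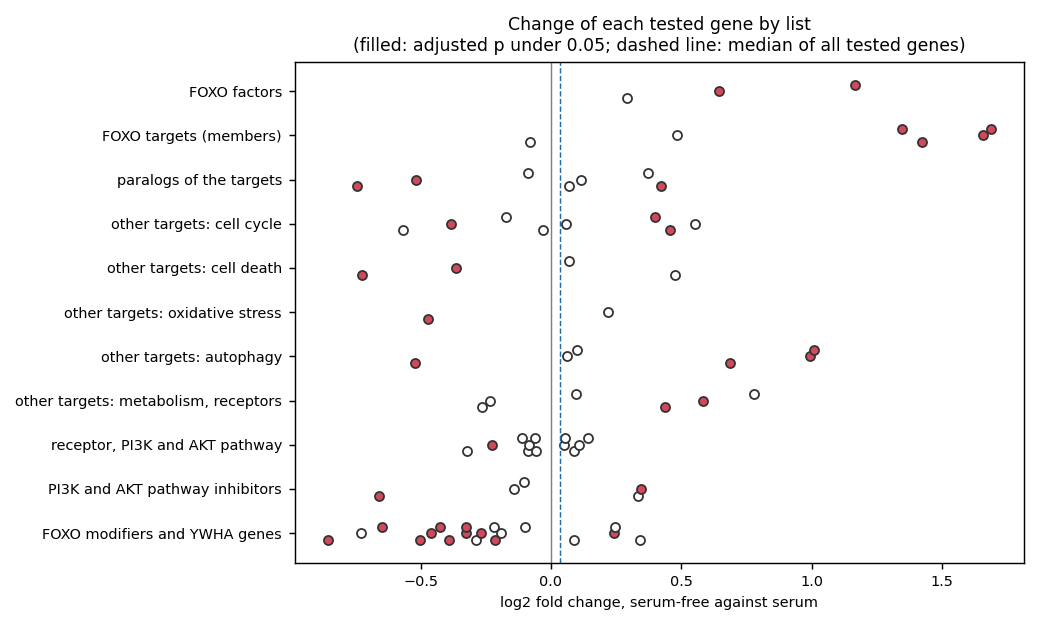
Log2 fold change (x axis, serum-free against serum) of each tested FOXO factor, target, relative or pathway gene by list (y axis). FOXO6, FOXO3B, marker and Mondo genes are not drawn. Points are filled where the adjusted p over all tested genes was under 0.05, and the dashed line is the median of all tested genes, 0.033. Filled points of the listed targets stand at 1.35 or above, further right than those of the other lists drawn, and most filled points of the FOXO modifiers, which include the 14-3-3 (YWHA) genes, lie left of 0.

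Upstream of FOXO, 1 of the 12 tested receptor, PI3K and AKT genes passed the test, beside 25.1% of all genes, while with the line block and a GC correction 2 rose and 4 fell, beside 21.8% and 24.7% of all genes. That gene, *PIK3CB*, a catalytic PI3K subunit, fell by 0.23 (edgeR's adjusted p = 0.0438), and the list's median was -0.06. A GC correction ended that call, at -0.10 with the line block (edgeR's adjusted p = 0.0692) and without it (0.226), as did leaving out the serum libraries of WT1 and WT2. *AKT1* (0.05) and *AKT2* (-0.06), named here outside the rule, did not pass, but with the line block and a GC correction both did, at -0.19 (edgeR's adjusted p = 0.00125) and -0.23 (2.46e-04). *PHLPP1*, which dephosphorylates AKT, rose by 0.34 (edgeR's adjusted p = 0.0228, or 0.0824 with a GC correction alone), a call also lost without the serum libraries of WT1 and WT2.

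Genes of proteins that modify FOXO or move it out of the nucleus fell more often than they rose. Of 19 tested, 10 fell and 1 rose, with a median log2 fold change of -0.29, beside 14.0% and 11.1% of all genes. With the line block 14 fell and 3 rose, beside 22.4% and 23.2% of all genes. Without the serum libraries of WT1 and WT2, 4 fell and 0 rose, where 1098 of 18668 genes were called. *SKP2*, the ubiquitin ligase part that targets FOXO1, fell by 0.86 (edgeR's adjusted p = 0.00188) and the nuclear exporter gene *XPO1* by 0.65 (0.00251). The single rise was that of the acetyltransferase gene *EP300* (0.24, edgeR's adjusted p = 0.0474, or 0.0760 with a GC correction alone), named after its value was seen. The 14-3-3 genes with a YWHA name, singled out after their values were seen, fell in 6 of 6 cases, with log2 fold changes of -0.50 to -0.27. *YWHAB*, a 14-3-3 gene, went from 633 ± 27.6 CPM to 471 ± 29.98 CPM (SD, n = 4; log2 fold change -0.43; edgeR's adjusted p = 0.00255). The 6 also passed with the line block and with the block and a GC correction. Without the serum libraries of WT1 and WT2 all 6 were below 0 and 2 passed.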

How the data were processed

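RNA from 8 libraries (4 A375 lines, each with and without serum) was depleted of ribosomal RNA and sequenced as paired reads. The authors deposited raw counts per gene, from HTSeq with GRCh38 and without normalization, and cutadapt and TopHat2 2.0.11 are named in the submitters' processing notes. The strand setting is not given in the sources used here, so overlapping and antisense genes are uncertain; 4.99% of the exon bases of *SESN1*, and under 1% of those of *SESN3* and *PIK3IP1*, are shared with a gene on the other strand, and 34.92% of those of *FOXO3B* with genes on its own strand. The paper's methods describe Cufflinks values on another build, which were not used here. Group and line came from the labels.

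The listed genes and gene lists were chosen with earlier results of these data known, so a list's direction is not independent evidence, and p-values are adjusted over all tested genes only. After a filterByExpr filter and TMM scaling, counts were tested in edgeR 4.0.16 (R 4.3.3; glmQLFit with robust estimation, glmQLFTest), with an adjusted p threshold of 0.05. The test of lines used the 3 line terms beside condition. CPM used TMM-scaled library sizes, and log2 CPM a prior count of 2. RPKM used merged exon length and, like GC content (known for 17425 of 17671 tested genes; lowess span 0.3), an annotation lifted to GRCh37, matched by identifier. Symbols matched 55604 of 58051 genes, and *SOD2* was not matched. Positions and promoters are from RefSeq on GRCh38.

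Same-line libraries deviated together from their condition means (correlations 0.40 to 0.60; -0.40 to 0.13 between lines), so the line number was also used as a block. Nothing says that libraries came from repeat cultures of a line, so p-values without the block measure the spread between these clones. With the block, and in the test of lines, they measure the spread left after line and condition, with 3 residual degrees of freedom. Other alternatives were RLE and upper-quartile scaling, other filters (none, or 10 counts in every library), GC correction, DESeq2 1.42.0, voom in limma 3.58.1, and leaving out libraries or lines.

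Outside the 10 genes, those named are all relatives by sequence and the Mondo genes, up to 3 genes of smallest p among those called in each other list, and the 5 genes whose pattern was most like the targets; exceptions are stated. Some genes of the lists are not reported here.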

Additional observations from a re-analysis of the deposited data

Results flagged for a closer look

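Of 30 groups of 4 values examined for the 10 genes (CPM with serum, CPM without serum and the difference by line), 2 held a value far from the other 3, where chance gives about 1.5 (1 in 20). The first was the response of *CCNG2*, where WT1 rose by 1.59 on the log2 scale and the other lines by 1.24 to 1.29. The gap to the nearest line took up 0.850 of the whole range. The second was *PIK3IP1* with serum, where WT1 was at 0.19 CPM and the other lines at 0.091 to 0.11 CPM, a gap of 0.848 of the range. These *PIK3IP1* values rest on 3 to 7 reads. Differences in response between lines were not tested.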

How the results depend on the processing

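Without the block, 4434 genes changed; with a replicate block for line 8067 did, and with the replicate block and a GC correction 8092. The block changed the calls of *FOXO1* and *TXNIP* and of no other listed gene. Leaving out a library or a line gave 1589 to 6128 genes (fewest without line WT1, 1589; without WT3, 1873; without WT2, 1975; without serum WT1, 2842), and 5 to 6 of the listed genes. Leaving out the serum libraries of WT1 and WT2, chosen after seeing the data, gave 1098. *FOXO3*, *FOXO4*, *FBXO32*, *KLHL24* and *CCNG2* passed in all 12 tests with a library or line left out, while *SESN3* passed in 5 and also failed without a filter (edgeR's adjusted p = 0.0925) and without the serum libraries of WT1 and WT2 (log2 fold change 1.34, 0.236). *FOXO1* turned to -0.12 in the latter. *SESN1* turned to 0.060 with the replicate block and GC correction, to 0.049 with GC correction alone, and ran from -0.20 to 0.068 with a library or line left out, turning without serum WT3 (0.068), serum-free WT4 (0.0056) or line WT3 (0.048). *FOXO6* failed with GC correction alone (edgeR's adjusted p = 0.0642). Upper-quartile scaling moved the share of higher genes among those called from 44.1% to 57.6%. The line test called 2822 to 3296 genes with a line left out, against 4055, and 6 to 7 listed genes. The share of listed promoters with any of the 3 motifs was 31.25% (14.8% of all promoters), with CAAAACA alone 6.25%, with CACGTG alone 6.25% and with GTAAACA alone 18.75%. The causes of these changes were not tested. Reads on *PIK3IP1* were too few for a filtered test.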

Other observations

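Outside the lists, 13883 genes were ranked by Pearson's correlation of their log2 CPM with the mean standardized level of the 7 targets over the 8 libraries, which share the condition contrast, so the values are a description. The genes most alike were *ALDH6A1*, an enzyme of valine breakdown (r = 0.994), *SEC31B*, of the COPII coat family (0.989), *ABCA5*, a membrane transporter (0.984), *RAPGEFL1* (0.982) and *ACSF2*, an acyl-CoA synthetase (0.981). *ALDH6A1* went from 4.90 CPM with serum to 10.2 CPM without, a log2 fold change of 1.05. The other 4 changed by 0.49 to 0.66 on the log2 scale.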
